A study of Mus musculus with 2 samples.

Results

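The BCL2 family decides whether an activated T cell keeps its mitochondria intact or dies. The genes described here are 10 members of that family, chosen by name: Bcl2l11, which encodes Bim, together with Bid, Bbc3, Pmaip1, Bad, Bak1, Bax, Bcl2, Bcl2l1 and Mcl1. A member was measured by every probe set that the platform annotation pairs with its symbol alone. This gave 23 probe sets for 9 of the 10 members, out of 28898 probe sets for 17097 genes on the array. No probe set carries Bax as its single symbol, so Bax, a pore-forming effector, is not analysed here.

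In this family, the antiapoptotic proteins Bcl-2, Bcl-xL and Mcl-1 hold the effectors Bak and Bax in check at the mitochondrial outer membrane. The BH3-only proteins Bim, Bid, Puma, Noxa and Bad bind into the groove of the antiapoptotic proteins or activate the effectors directly, after which the membrane is permeabilised and cytochrome c is released. Bim is known as a main executor of the death of T cells after activation and of cytokine withdrawal, and its transcription is raised by FOXO factors. OX40, a costimulatory receptor on activated T cells, is known to support their later survival, in part through Bcl-xL and Bcl-2.

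The T cells came from 6-week-old C57/Bl6 mice with a Foxp3-eGFP reporter, which marks regulatory T cells. Naive Foxp3-negative CD4+ cells, sorted by surface markers of the naive state, were activated for 48 hours with soluble anti-CD3 and splenocytes depleted of T cells, used as antigen-presenting cells (APC) after mitomycin C at 50 µg/ml had stopped their division. One culture received APC of wild type (Wt) B6 mice. The other received APC of mice with an OX40L transgene (OX40L-Tg). Which promoter drives the transgene is not stated in the labels. Living CD4+ T cells were sorted from each culture, and their RNA was hybridised to 1 HT_MG-430 PM array per condition. The comparison asks how OX40L on the APC alters the transcripts of the T cells. With 1 array per group no difference could be tested and no value has an error between cultures or mice.

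Values are given in RMA intensity units with Wt APC first. RMA corrects the background, gives the arrays the same distribution and combines the probes of a set, so a change in total RNA per cell cannot be seen. A difference is the log2 value with OX40L-Tg APC less the log2 value with Wt APC. Probe sets of different genes bind with different strength, so levels are compared between the arrays. Levels of different genes are not read as amounts of their transcripts relative to each other. Medians over all probe sets were 14.7 units on both arrays, and log2 values correlated across all probe sets with r = 0.993. The floor was each array's median, and 10541 genes reached it with their brightest probe set in at least 1 condition. The background level, the 95th percentile of 39 genes known mainly from other organs, came to 38.9 units for Wt APC and 41.8 for OX40L-Tg APC. The floor lies below it, so shares over all genes include genes below background. Of these genes Tg, at 3302 and 4491 units, and Krt10, at 74.9 and 67.5 units, read above that level, and without them the level would be 24.8 and 25.4 units. The labelled extraction protocol mentions adipose tissue, but all 4 adipocyte markers with a value, Adipoq, Fabp4, Lep and Retn, were below background on both arrays, whereas all 9 T cell markers with a value were above it.

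Bim was the member that differed. All 5 probe sets of Bcl2l11 read lower with OX40L-Tg APC, 4 of them by 4.45-fold to 4.83-fold and the fifth by at least 2.58-fold, since it fell below background there, and no other member differed by 1.5-fold, a size that 7.21% of all genes reached in either direction. Of the 9 members above the floor, 1 was at least 2-fold lower, against 1.17% of all genes, and 0 were at least 2-fold higher, against 1.56% of all genes. The members' median difference was 0.11, beside 0.02 for all genes. Outside Bcl2l11, the 8 other members lay between -0.21 and 0.35, and 7 of the 9 were within 1.2-fold, as were 73.4% of all genes. Among the members measured, a difference of this size was thus seen in Bcl2l11 alone, and the median of the family does not show it.

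**Figure D1:**
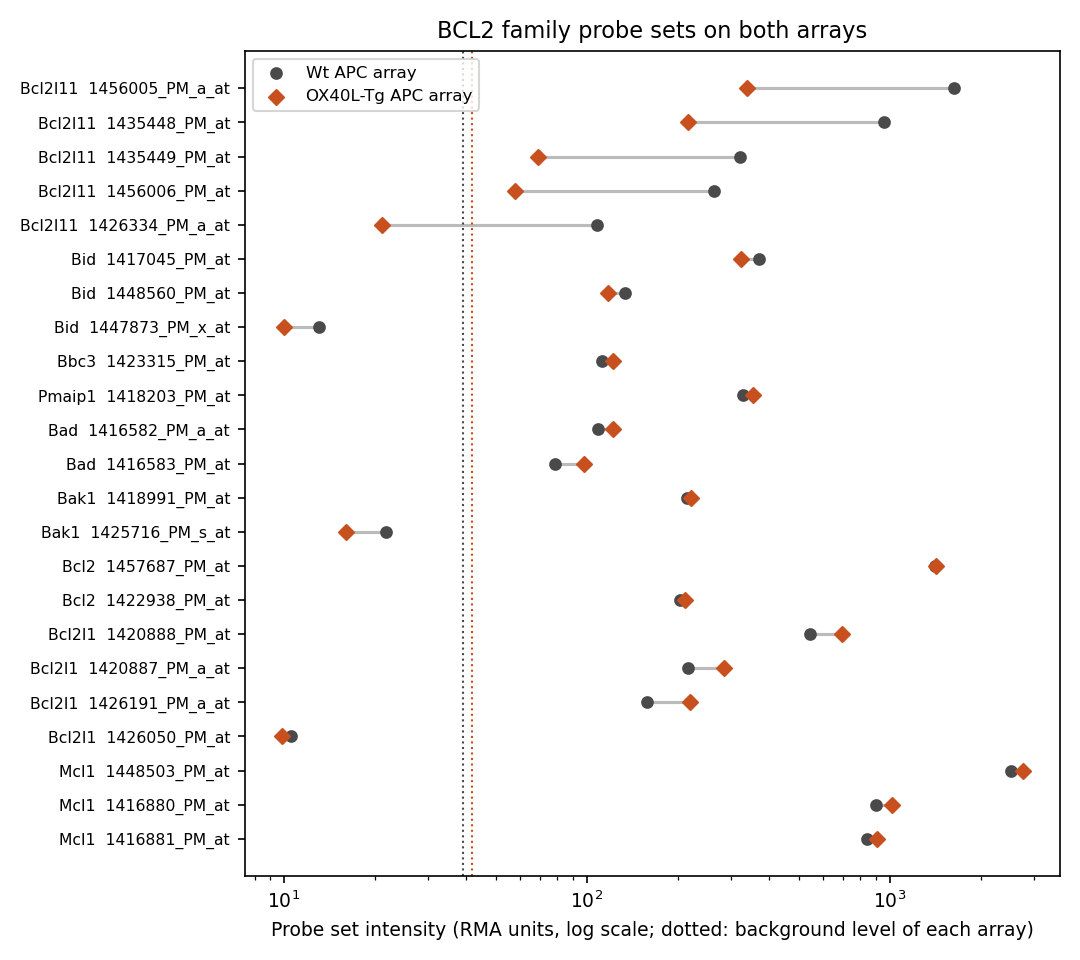
Intensity (RMA units, log axis) of each of the 23 probe sets of BCL2 family members on the Wt APC array (grey circles) and the OX40L-Tg APC array (orange diamonds), 1 array each, with dotted lines at each array's background level of 38.9 and 41.8 units. The 5 Bcl2l11 pairs are spread apart with the OX40L-Tg APC value to the left, whereas the pairs of the other members lie close together.

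Bcl2l11 encodes the BH3-only protein Bim, which binds all antiapoptotic family members and can activate Bax and Bak. Its brightest probe set, 1456005_PM_a_at, gave 1631 units in the Wt APC culture and 338 units in the other, a 4.83-fold difference. Probe set 1435448_PM_at read 960.1 and 216 units, and 1435449_PM_at read 320.1 and 68.9 units. In each of these the OX40L-Tg APC value was well under the Wt APC value and still above background. Probe set 1456006_PM_at read 263 and 57.8 units. The dimmest, 1426334_PM_a_at, read 108 and 21.1 units, and its OX40L-Tg APC value was below background, so its fold is given only as a bound of at least 2.58-fold lower, or at least 4.24-fold with the background taken without Tg and Krt10. The 5 differences were -2.27, -2.16, -2.22, -2.19 and -2.35, the last from the value below background, with an SD of 0.08 between probe sets. Among 2868 genes with at least 2 probe sets above background, the pooled SD between probe sets of a gene was 0.12. The probe sets of Bcl2l11 thus differed from each other by far less than the difference between the arrays, but they measure the same 2 RNA samples and are not replicates of the condition.

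Of 10541 genes above the floor, 12 including Bcl2l11 were lower by at least as much, which is 0.114%. The 5 genes nearest to Bcl2l11 in their log2 values over the 2 arrays were Iigp1, Eno3, Gbp10, Foxp1 and Gbp7. Iigp1, an interferon-inducible GTPase, read 1704 and 428 units. Eno3, a glycolytic enolase, read 1043 and 320.2 units. Foxp1, a forkhead factor that holds T cells in quiescence, read 929 and 321 units. Nearness here means only a like level and a like difference on 2 arrays. The guanylate-binding protein genes Gbp10 and Gbp7 differed by -1.49 and -1.46.

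**Figure D2:**
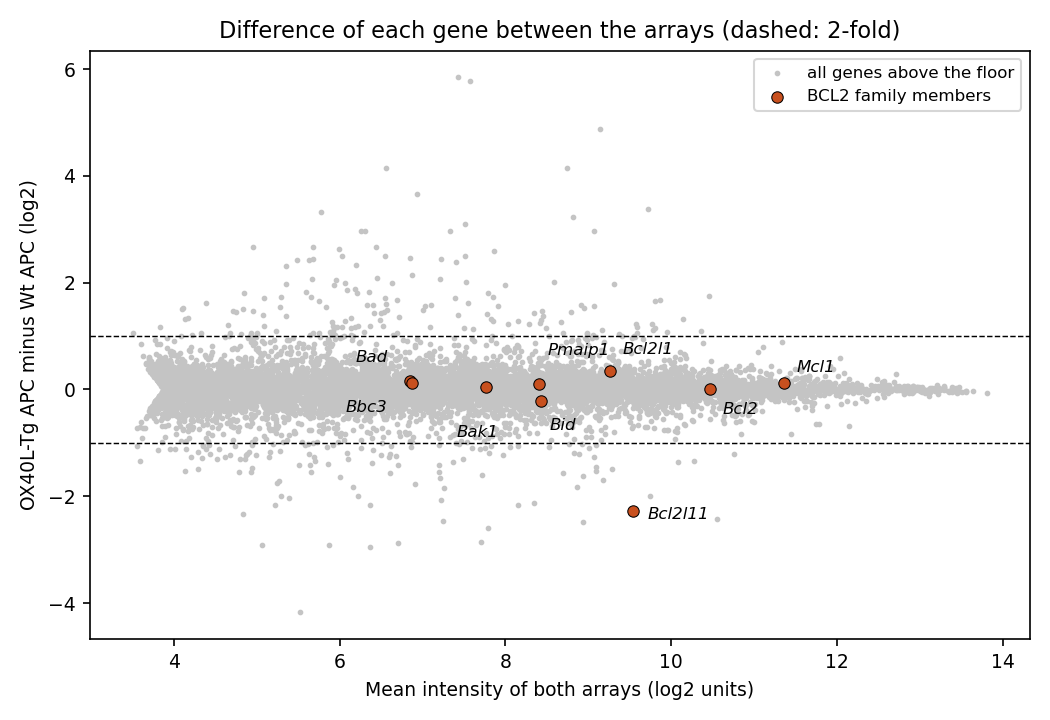
Difference between the arrays (OX40L-Tg APC minus Wt APC, log2) against the mean log2 intensity of both arrays, for 10541 genes above the floor (grey) and the 9 BCL2 family members among them (orange); dashed lines mark 2-fold. Bcl2l11 lies at -2.27, while the 8 other members lie between -0.21 and 0.35 within the cloud of all genes.

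Among the other BH3-only genes, differences were small and of both signs. Bid encodes a protein that caspase-8 cleaves to link death receptors to mitochondria. Its brightest probe set read 371 and 322 units, a difference of -0.21, and its second probe set read 134 and 117 units, at -0.19. The third Bid probe set was below background on both arrays. Bid was thus slightly lower with OX40L-Tg APC in both probe sets that gave a signal, and 16.3% of all genes were lower by at least as much.

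Bbc3 encodes Puma, a p53-induced activator of Bax and Bak. It read 112 and 122 units, a difference of 0.12 in its single probe set. Pmaip1 encodes Noxa, which binds Mcl-1 in particular, and read 328 and 353 units, a difference of 0.11. Both were slightly higher with OX40L-Tg APC, as were 54.0% of all genes by any amount. Bad encodes a BH3-only protein that survival kinases hold inactive by phosphorylation. Its probe sets read 109 and 122 units and 78.7 and 97.9 units, differences of 0.16 and 0.31. At 0.16 or above lay 24.1% of all genes.

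Bak1 encodes the effector Bak, which oligomerises in the mitochondrial membrane. It read 215 and 221 units, a difference of 0.04, in the probe set that was above background. Its second probe set read 21.8 and 15.99 units, both below background. Bak1 therefore gave no direction: the median of its probe sets, the second included, was -0.20.

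The antiapoptotic genes read equal or higher with OX40L-Tg APC. Bcl2 read 1408 and 1421 units in its brighter probe set and 204 and 211 units in the other, differences of 0.01 and 0.05. The brighter probe set gave the smallest difference of any member, and it turned to -0.0030 after a lowess correction of the difference on level. Bcl2l1, which encodes Bcl-xL, read 545 and 696 units in its brightest probe set, 1.28-fold higher. Its probe sets 1420887_PM_a_at and 1426191_PM_a_at read 216 and 283 units and 158 and 219 units. All 3 Bcl2l1 probe sets with a signal were higher, by 0.35 to 0.47, and 9.47% of all genes were higher by at least 0.35. The fourth, 1426050_PM_at, was below background on both arrays. Mcl1, whose short-lived product T cells need at every stage, read 2512 and 2748 units in its brightest probe set. Its other probe sets read 904 and 1015 units and 839 and 906 units. All 3 Mcl1 differences lay between 0.11 and 0.17, and 28.7% of all genes were higher by at least 0.13, the difference of the brightest.

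The ratios of Bcl2l11 to its antiapoptotic partners within each array restate differences given for single genes. Each shift is the Bcl2l11 difference less that of the partner. The log2 ratio of Bcl2l11 to Bcl2l1 was lower by a difference of -2.62 with OX40L-Tg APC, that of Bcl2l11 to Mcl1 by -2.40 and that of Bcl2l11 to Bcl2 by -2.28. As folds these are 6.16, 5.28 and 4.87. Against Bcl2l2, which encodes the antiapoptotic Bcl-w, the shift was -2.94. A common scaling factor between the arrays leaves such shifts as they are, and after the level-dependent lowess correction they were -2.62, -2.41, -2.29 and -2.94. A shift shows an unequal change of the transcripts, not of the proteins, and for Bcl2 it is nearly the whole of the Bcl2l11 difference.

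Some markers of cell types differed between the arrays too. Of 9 T cell markers above the floor, 8 were lower with OX40L-Tg APC, against 46.0% of all genes lower by any amount. The median of the 9 markers was -0.30, with summed levels of 23154 and 19630.5 units. MHC class II genes, typical of APC, were higher in 4 of 4 above the floor, against 54.0% of all genes higher by any amount. Summed levels over the 5 MHC class II genes were 2141 and 2956 units, with Ciita below background on both arrays. B cell markers were higher in 4 of 5 above the floor, against the same 54.0% of all genes. Counts over 4 or 5 genes say little beside such a share. Summed levels over 7 B cell genes were 706 and 960 units, while the defining B cell factor Pax5 was below background on both arrays. Among dendritic cell markers, Flt3 read 46.1 and 43.3 units, a difference of -0.09, whereas Itgax, Zbtb46 and Xcr1 were below background on both arrays. The 8 markers of macrophages and monocytes were all below background, as were the 4 neutrophil markers with a value. Cd8b1 read 191 and 239 units, and Cd8a was below background. Among NK cell markers, Klrd1 read 78.7 and 19.7 units, the latter below background, whereas Ncr1, Klrb1c and Klra8 were below background on both arrays. The alpha globin gene Hba-a1 read 1161 and 207 units, whereas the erythroid genes Alas2 and Slc4a1 were below background on both arrays. The part of these cell types in the Bcl2l11 difference was not tested. In bulk RNA, fewer cells that carry a transcript and less of it per cell cannot be told apart.

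Other genes of the BCL2 family gave 1 large difference, in the direction of higher values. Of 16 listed, 14 had a value and 11 were above the floor, of which 6 were higher and 5 lower, with a median of 0.02. Of these 11, 4 were below background on both arrays, Bmf, Bik and Hrk among them. The signs of those 4 are not resolved. Bcl2l14, which encodes Bcl-G, read 49.1 and 146 units, 2.97-fold higher in its single probe set, and was the only one of the 11 past 2-fold, a size that 1.56% of all genes reached upward. Bcl2l2 read 72.6 and 116 units, 1.59-fold higher, but its 3 other probe sets were below background. Bcl2a1a, of the A1 genes that NF-kB induces in lymphocytes, read 1379 and 1340 units. The probe set of Bcl2a1a is of a type shared between transcripts, and the near-identical copies Bcl2a1b and Bcl2a1d have no value of their own here, so the signal cannot be assigned to 1 copy. Bmf, a BH3-only gene closely related to Bim in function, was below background in all 3 probe sets, as were the BH3-only genes Bik in 3 and Hrk in 2. With the background taken without Tg and Krt10, 1 Bik probe set, at 26.8 and 39.0 units, was above it.

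Bcl2l11 was not the only gene at its locus with a lower value. In RefSeq order on GRCm38.p6, the nearest neighbours with a probe set are Acoxl and Bub1 on one side and the long noncoding RNA gene Morrbid on the other. Acoxl, an acyl-CoA oxidase-like gene on the same strand whose annotated span overlaps the start of Bcl2l11, read 69.7 and 21.2 units in its single probe set. The OX40L-Tg APC value was below background, so Acoxl was at least 1.67-fold lower, or at least 2.74-fold with the background taken without Tg and Krt10. Whether the Acoxl probes lie in the stretch shared with Bcl2l11 was not tested. Morrbid, known to repress Bcl2l11 in cis in myeloid cells, read 133 and 112 units, a difference of -0.24, and its second probe set was below background. Bub1, a mitotic checkpoint kinase gene, read 1201 and 1051 units, at -0.19. Its second probe set read 46.8 and 32.5 units, the latter below background. Both were thus within 1.2-fold in the brighter probe set, unlike Acoxl and Bcl2l11.

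MicroRNAs of the miR-17 cluster are known to repress Bim in lymphocytes, and the array carries a probe set for their host transcript. Mir17hg read 437 and 475 units, a difference of 0.12. The mature microRNAs themselves were not measured. Their part in the Bcl2l11 difference was not tested. They are shown because they fall into 4 seed groups, with miR-17-5p and miR-20a-5p in one and both miR-19 members in another. The sequences are from RefSeq on GRCm38.p6, all from the plus strand of chromosome 14, with the seed (bases 2 to 8) in capitals.
mmu-miR-17-5p: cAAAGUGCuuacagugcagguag
mmu-miR-20a-5p: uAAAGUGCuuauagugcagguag
mmu-miR-18a-5p: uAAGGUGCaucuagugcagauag
mmu-miR-19a-3p: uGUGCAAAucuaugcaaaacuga
mmu-miR-19b-3p: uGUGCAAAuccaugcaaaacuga
mmu-miR-92a-3p: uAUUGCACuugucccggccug

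FOXO factors are the best known activators of Bcl2l11 transcription, so the FOXO motif GTAAACA was searched on both strands (TGTTTAC on the other) in the 250 bases before each annotated start of a member. The search took RefSeq promoter windows on GRCm38.p6 for 9 of the 10 members, with 15 windows in all. Pmaip1 was left out of the search, so whether it has the motif is not known here. The motif was present in 2 of the 15, 1 of the 2 windows of Bcl2l11 and 1 of the 3 windows of Bbc3, and in 3.17% of 32851 windows of the same length over all genes. These 30-base stretches are shown since the genes that share the motif differed so unequally, by -2.27 and 0.12. The first begins 12 bases before a match whose first base lies at -227 from the Bcl2l11 start (chr2:128125799-128125828, plus strand), and the second surrounds a match at -167 from a Bbc3 start (chr7:16310082-16310111, plus strand). Capitals mark the motif. A match is a description of the letters and does not show binding.
Bcl2l11: caagacactaggGTAAACAcgccggggtgg
Bbc3: gtctggcgggttTGTTTACaaacaatgggg

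Among the FOXO factors themselves, Foxo3 was nearly level and Foxo4 lower. Foxo3 read 319 and 326 units in its brightest probe set and 184 and 172 units in the next, differences of 0.03 and -0.09. Foxo4 read 104 and 80.2 units, a difference of -0.37, and its second probe set was below background. Foxo1 was below background on both arrays in its only probe set. FOXO factors are governed mainly by phosphorylation and export from the nucleus, which the array does not measure. Of 9 FOXO target genes above the floor, 8 were lower, against 46.0% of all genes, with a median of -0.38. The list was chosen with earlier results of these data known, so this count is a description only. Of the 8, S1pr1, Cdkn1b and Txnip differed by only -0.10, -0.17 and -0.20. By their measured values 2 targets were at least 2-fold lower, against 1.17% of all genes, Tnfsf10 only through a value below background. Klf2, a factor of quiescent T cells, read 358 and 65.0 units, 5.51-fold lower. Tnfsf10, which encodes the death ligand TRAIL, read 58.1 and 26.2 units, at least 1.39-fold lower against background, or 2.22-fold where the background is taken without Tg and Krt10. Sesn1, a stress-induced sestrin, read 331 and 213 units, and its 3 probe sets all differed by -0.64. Ccng2, a cyclin of resting cells, differed by -0.39 and -0.52. Sesn3 was the member that was higher, at 626 and 819 units. T cell markers had a like median of -0.30 on the same arrays, and the part of cell composition in these values was not tested. The 5 other listed targets had no value.

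**Figure D3:**
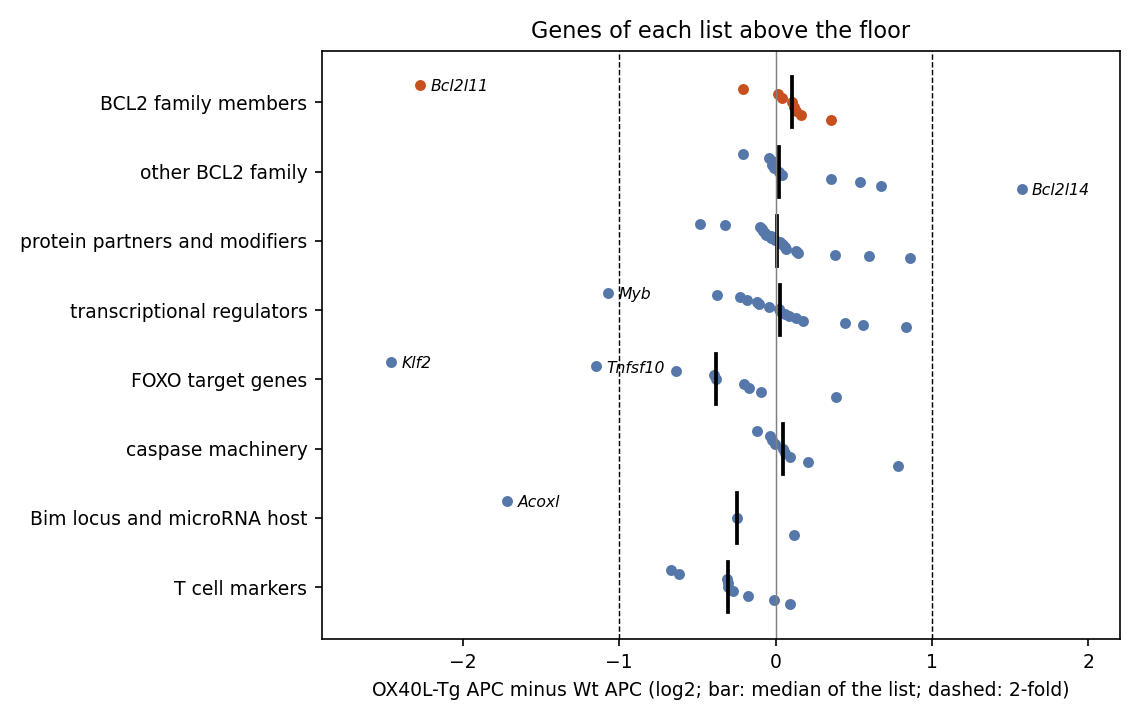
Difference between the arrays (OX40L-Tg APC minus Wt APC, log2) of each gene above the floor, by gene list, 1 point per gene, with the list median as a black bar and dashed lines at 2-fold. The 9 FOXO target genes have a median of -0.38 and the 9 T cell markers one of -0.30, whereas the BCL2 family members sit at 0.11 with Bcl2l11 alone at -2.27.

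Other regulators known to act on BCL2 family genes were mixed. Leaving out the FOXO factors, 14 were above the floor, of which 8 were higher and 6 lower, with a median of 0.04, and Trp53 had no value. Of the 6 lower, 1 was below background on both arrays. Myb, a factor known to support Bcl2 transcription in lymphocytes, read 169 and 80.4 units, 2.10-fold lower. Ddit3, the stress factor CHOP, which can raise Bim, read 129 and 229 units, 1.78-fold higher. Atf4, its upstream factor, read 2026 and 2750.2 units. Stat5a, which carries signals of IL-2 family cytokines to survival genes such as Bcl2l1, read 797 and 1173 units, and its probe sets differed by 0.56 and 0.61. The part of these regulators in the differences of the members was not tested.

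Genes whose products bind, modify or degrade BCL2 family proteins had a median of 0.01 over 20 above the floor, with 0 of 20 past 2-fold either way, against 1.17% of all genes lower and 1.56% higher by that much. Ppp3ca, a catalytic subunit of calcineurin, which dephosphorylates Bad, read 176 and 319 units, 1.82-fold higher, with 1.89-fold in its second probe set. Fbxw7, a ubiquitin ligase subunit that marks Mcl-1 for degradation, read 161 and 243 units, 1.51-fold higher, with 1.35-fold in the other. The kinase genes Pim1 and Pim2, which inactivate Bad, differed in opposite directions, by 0.38 and -0.48. Dynll1, the dynein light chain that tethers Bim to microtubules, read 3748 and 3676 units.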

How the data were processed

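RNA of CD4+ T cells from 2 cultures was measured, 1 array per culture. Per the submitters' processing notes the authors ran RMA, and they deposited its output as linear intensity per probe set. The RMA version and the arrays normalized together are not given in the sources used here. Log2 was taken from these intensities. Of 45141 probe sets, 28898 had 1 symbol in the platform annotation, 551 had several, and 15692 were unlisted and stay unnamed. The RefSeq table of GRCm38.p6 held the Entrez number of 28689. A gene took its probe set with the highest mean. The number of arrays limits the precision.

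The members and lists were chosen with earlier results of these data known. The rule for named genes took all members, up to 4 genes of each list with the largest difference, the 5 genes nearest Bcl2l11, its 3 neighbours on each side and some genes listed by name. Marker genes, Tg, Krt10, Foxo4, Dynll1, Sesn3, S1pr1, Cdkn1b and Txnip were named outside it, after their values were seen. A gene below background on 1 array gets a fold against the background level of that array. Alternatives were the median of a gene's probe sets, probe sets of 1 transcript group only, 16 units added before log2, lowess (span 0.3), other floors, a 1.5-fold threshold and a lower background percentile. Python 3.11.15, numpy 2.4.6, pandas 2.3.3, statsmodels 0.14.6 and matplotlib 3.10.9 were used, and the calculation was tested on simulated data.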

Additional observations from a re-analysis of the deposited data

How the results depend on the processing

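Over the alternatives for the members, for their counts and medians, and for the same over all genes, 75 of 80 values stayed within the pooled SD between probe sets of a gene, or within 1.5 times for counts. Some of the 80 could not move. Bbc3 and Pmaip1 have 1 probe set each, and for most members the brightest probe set was already of 1 transcript group. Bcl2l11 lay between -2.29 and -2.16 in its 4 alternatives. With the median of all probe sets, Bak1 moved from 0.04 to -0.20, since its second, dim probe set then enters. With probe sets of 1 transcript group only, Bad moved from 0.16 to 0.31. Over all genes, the 123 that were at least 2-fold lower became 69 with 16 units added before log2 and 65 with the floor at the 75th percentile, where the 164 at least 2-fold higher became 107. The higher floor leaves fewer genes to count, so its lower counts do not show that single genes moved. Bcl2 turned from 0.01 to -0.0030 under lowess. The 90th percentile of genes of other organs is a lower background, which by definition raises each of the 5 bounds. That of the dimmest Bcl2l11 probe set became 4.24-fold and that of Acoxl 2.74-fold. Leaving Tg and Krt10 out of those genes was an alternative chosen after seeing the data. It gave the same level, 24.8 and 25.4 units, and so the same bounds, and is not a second check. At this level 4 of 81 named probe sets, 0 of them of members, changed sides. No paired analysis was possible because each group has 1 array, and no array could be left out. Signal over background limits Bmf, Bik, Hrk and Foxo1, whose levels are not resolved.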

Other observations

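Genes that act after the mitochondrial membrane is permeabilised differed in both directions. Of 9 caspase machinery genes above the floor, 5 were higher and 4 lower with OX40L-Tg APC, with a median of 0.05, and 0 passed 2-fold, a size that 1.17% of all genes reached downward and 1.56% upward, so a count of 0 among 9 says little. Htra2, a mitochondrial protease that counters inhibitors of apoptosis, read 317 and 545 units, 1.72-fold higher in a probe set of the shared type. Apaf1, the scaffold of the apoptosome, differed by 0.20 and 0.26 in its probe sets. Cycs, cytochrome c, read 3640.1 and 3880.2 units, and Xiap, an inhibitor of caspases, read 629 and 579 units in its brightest probe set. The only other Xiap probe set above background read 87.9 and 90.1 units, so Xiap gave no direction.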
